A study of Homo sapiens with 4 samples.

Results

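The 10 genes described here encode surface, matrix and calcium- or sugar-binding proteins that are widely used to mark mesenchymal cells. They were chosen by name, as THY1, CD44, NT5E, ENG, FN1, SPARC, POSTN, TNC, LGALS1 and S100A6. All 10 were measured, each by 1 probe set, among 17687 named genes on Affymetrix whole-transcript arrays. The cells were SK-N-AS, an established human neuroblastoma line, and the design text calls the arrays of a group biological replicates. The treated group was 2 arrays of SK-N-AS exposed to BG-P400-TAT at 30 µM for 48 h. The untreated group was 2 arrays of the same line, with phosphate-buffered saline and without BG-P400-TAT for the same 48 h. Both groups grew in the same serum-containing medium, and a single line was used, so the values describe that line alone. By the series title, BG-P400-TAT is meant to act on 2 surface proteins, the transporter of norepinephrine and an αvβ3 integrin that binds thyroid hormone.

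Mesenchymal cells such as fibroblasts and stromal progenitors are recognised by surface proteins, among them the THY1, NT5E and ENG products, and by the matrix proteins they secrete. Neuroblastoma cells are known to occupy an adrenergic state, close to sympathetic neurons, or a mesenchymal state with matrix and migration genes. Fibronectin, SPARC, periostin and tenascin-C are secreted into the matrix, where integrins and other receptors bind several of them.

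The level of a gene was read against the signal that 95% of the negative-control probe sets did not exceed, called the limit below. On the mean of the 4 arrays the limit was 6.96 on the log2 scale. The limit of single arrays was 7.19 and 7.25 on the treated arrays, and 7.31 and 7.64 on the untreated arrays. Signals of different probe sets were not ranked against each other, because probes differ in brightness at equal RNA.

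The array-wide medians were alike, at 6.51 and 6.49 on the treated arrays and at 6.51 and 6.50 on the untreated arrays. Untreated replicate 2 stood apart, with a median absolute log2 difference of 0.244 to untreated replicate 1 over all probe sets, and of 0.237 and 0.242 to the treated arrays, whereas pairs without it differed by 0.193 to 0.208. Over the 10 genes the same measure between the untreated arrays was 0.11. FN1, POSTN and TNC had their lowest values on untreated replicate 2, as given below. For FN1 and TNC the differences without that array are also given.

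Of the 10 genes, 8 lay above the limit on all 4 arrays and 2, POSTN and TNC, lay below it on all 4 arrays. By the mean of the 4 arrays, 8 of the 10 genes were above the limit, against 8722 (49.3%) of all 17687 named genes. The share of all named genes above it on every single array was not counted. The count of 8 was the same when the treated arrays or the untreated arrays were used alone. No gene of the 10 passed the test between treated and untreated cells, where 0% of the 21448 probe sets tested were called by limma at an adjusted p under 0.05. At an unadjusted p under 0.05 limma named 1 of the 10, THY1, against 5.08% of all probe sets.

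The 4 matrix genes fall on both sides of the limit, with FN1 and SPARC above it and POSTN and TNC below it. The sequences just before their starts are shown, and a link between sequence and level was not tested. RefSeq's promoter table for GRCh38.p14 held 8 of the 10 genes, all but THY1 and LGALS1. The 250 bases before the start span chr2:215436069-215436318 for FN1, chr5:151686916-151687165 for SPARC, chr13:37598769-37599018 for POSTN and chr9:115118158-115118407 for TNC, all on the minus strand. Capitals mark matches, on either strand, to a TATA box (TATAAA), a GC box (GGGCGG), an AP-1 site (TGANTCA) or a cyclic AMP response element (TGACGTCA).

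FN1: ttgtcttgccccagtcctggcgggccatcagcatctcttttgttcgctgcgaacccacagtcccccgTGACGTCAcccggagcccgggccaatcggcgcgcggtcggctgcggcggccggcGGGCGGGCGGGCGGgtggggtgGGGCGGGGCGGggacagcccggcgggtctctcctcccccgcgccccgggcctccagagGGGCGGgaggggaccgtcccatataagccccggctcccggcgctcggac
SPARC: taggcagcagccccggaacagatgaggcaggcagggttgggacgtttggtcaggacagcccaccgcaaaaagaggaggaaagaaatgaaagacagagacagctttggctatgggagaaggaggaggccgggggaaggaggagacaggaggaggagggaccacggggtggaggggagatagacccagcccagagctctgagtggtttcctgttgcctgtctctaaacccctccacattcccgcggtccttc
POSTN: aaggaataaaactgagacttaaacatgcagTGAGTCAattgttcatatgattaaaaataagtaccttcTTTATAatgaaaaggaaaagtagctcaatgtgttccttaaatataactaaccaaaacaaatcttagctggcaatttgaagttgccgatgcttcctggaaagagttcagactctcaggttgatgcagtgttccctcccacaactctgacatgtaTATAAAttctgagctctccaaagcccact
TNC: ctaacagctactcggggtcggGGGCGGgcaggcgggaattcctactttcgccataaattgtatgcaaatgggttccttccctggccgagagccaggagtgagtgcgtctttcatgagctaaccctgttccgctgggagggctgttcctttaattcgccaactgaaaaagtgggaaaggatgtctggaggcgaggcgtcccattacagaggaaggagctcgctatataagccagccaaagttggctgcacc

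In these windows FN1 held 6 GC-box matches, some of them overlapping, and 1 cyclic AMP response element match. POSTN held 2 matches to the TATA letters, of which the nearer ended 23 bases before the start, and 1 AP-1 match. TNC held 1 GC-box match, and SPARC held none of the 4 motifs. Over all 35116 promoters of the table, 10.7% held the TATA letters, 42.6% a GC box, 6.57% the AP-1 letters and 1.65% the cyclic AMP response element. Of the other members, CD44, NT5E and S100A6 held GC boxes and ENG held none of the 4 motifs, so that 5 of the 8 windows had a GC box. The base composition was 76.4% G or C with 32 CpG pairs for FN1, 59.2% with 7 pairs for SPARC, 36.4% with 1 pair for POSTN and 54.8% with 12 pairs for TNC. The median over the table was 58% G or C with 11 CpG pairs. These are matches of letters and were not set against binding data. Variants of the letters were not sought, so the letters tataag near the start in the FN1 and TNC windows are not marked. A window without a match can therefore still hold a variant of a motif.

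THY1 encodes a GPI-anchored surface glycoprotein of the immunoglobulin family, also called CD90, found on fibroblasts, stromal progenitors and neurons. THY1 was the 1 member of the 10 whose groups did not overlap, and the groups did not overlap in 33.1% of all probe sets either. Its log2 expression was 11.84 and 12.19 on the treated arrays, against 11.35 and 11.38 on the untreated arrays. Both treated arrays were higher than both untreated arrays, and the untreated arrays lay close together. THY1 averaged 12.01 ± 0.25 in treated and 11.36 ± 0.025 in untreated cells (SD, n = 2 each), a log2 difference of 0.65 or 1.57-fold. The 95% interval ran from 0.17 to 1.13 on the log2 scale, or 1.12- to 2.19-fold. The unadjusted p was 0.0153 and the limma adjusted p 0.948, so the difference did not pass. In RNA from whole cultures, a change in the number of cells that carry a transcript and a change in RNA per cell cannot be told apart. Non-overlap with the treated arrays higher was found in 1 of the 10 members and in 16.4% of all probe sets, and non-overlap in either direction in 33.1%. Leaving out each array in turn gave log2 differences of THY1 from 0.47 to 0.83, the lowest without treated replicate 2 and the highest without treated replicate 1.

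CD44 encodes the main cell surface receptor for hyaluronan. CD44 stood at 10.49 and 9.84 on treated replicates 1 and 2, against 10.04 and 10.07 on the untreated arrays. The treated arrays lay on either side of the untreated ones and differed from each other by 0.65. The log2 difference of CD44 was 0.11 with an interval from -0.49 to 0.70 (limma adjusted p = 0.997), and it was -0.22 without treated replicate 1 and 0.43 without treated replicate 2.

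NT5E encodes the GPI-anchored ecto-nucleotidase CD73, which makes extracellular adenosine from AMP. NT5E had a log2 expression of 13.88 and 13.63 in treated and of 13.86 and 13.76 in untreated cells. The groups overlapped, and all 4 arrays lay more than 6 log2 units above the limit. The log2 difference of NT5E was -0.06, with an interval from -0.52 to 0.40 that corresponds to 0.699- to 1.32-fold.

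ENG encodes endoglin, CD105, a co-receptor for ligands of the TGF-beta family. ENG stood at 13.73 and 13.44 on the treated arrays, and at 13.27 and 13.48 on the untreated arrays. Treated replicate 1 was the high array, and treated replicate 2 lay between the untreated arrays. The log2 difference of ENG was 0.21 with an interval from -0.27 to 0.69 (limma adjusted p = 0.974), and 0.07 to 0.35 with an array left out.

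**Figure D1:**
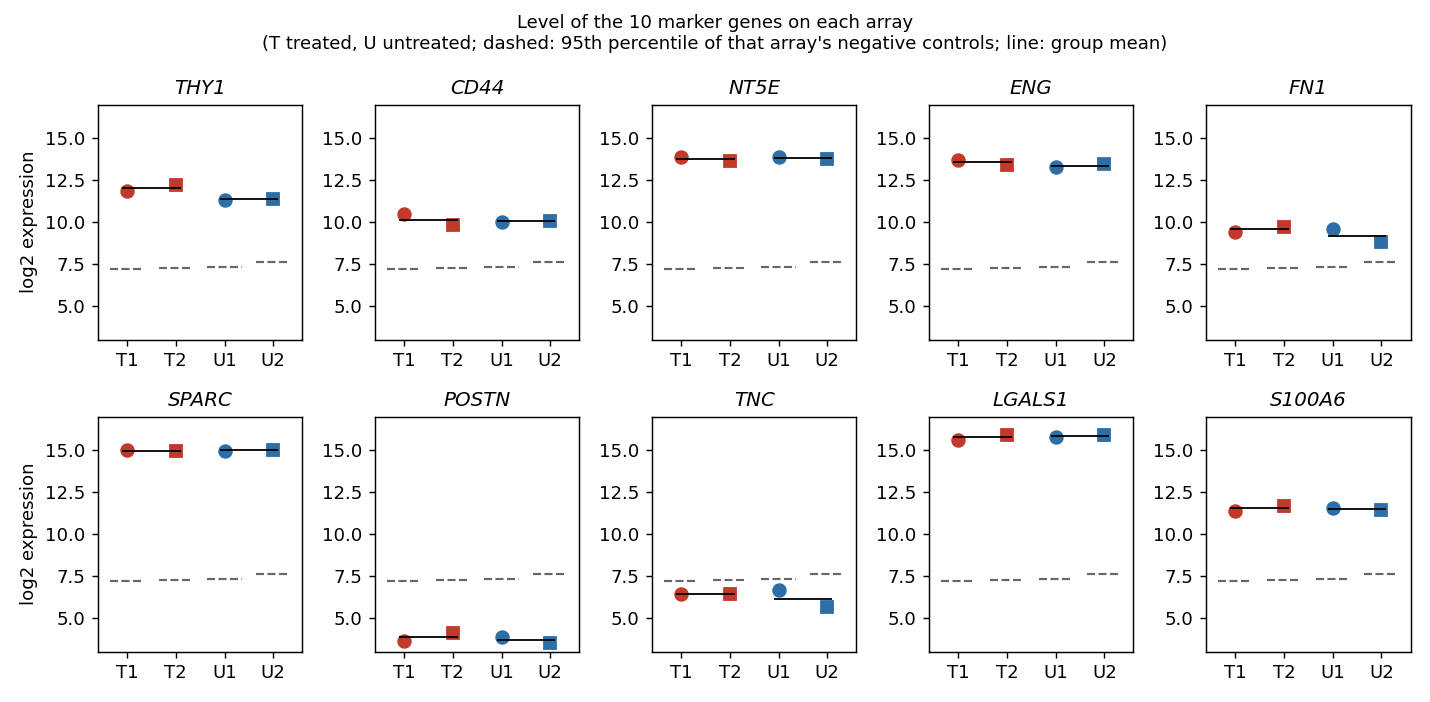
Log2 expression (y axis) of the 10 genes on treated arrays (T1 and T2, red) and untreated arrays (U1 and U2, blue), with black lines at group means and dashed lines at the 95th percentile of each array's own negative controls. POSTN and TNC lie below the dashed lines on all 4 arrays and the other 8 genes above them. THY1 is the gene whose treated points both lie above its untreated points, as was found for 16.4% of all probe sets.

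FN1 encodes fibronectin, an adhesive glycoprotein of the matrix that binds integrins, collagen and heparin. FN1 stood at 9.42 and 9.75 on the treated arrays, against 9.57 and 8.83 on untreated replicates 1 and 2. Only untreated replicate 2 was low, and untreated replicate 1 lay between the treated arrays. The mean was 9.58 ± 0.23 in treated and 9.20 ± 0.52 in untreated cells (SD, n = 2 each), a log2 difference of 0.38 with an interval from -0.29 to 1.05 (limma adjusted p = 0.954). Without untreated replicate 2 the log2 difference of FN1 was 0.011, and without untreated replicate 1 it was 0.75. FN1 was above the limit at the 95th percentile but not at the 99th, which was 9.42 for the negative controls.

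SPARC encodes osteonectin, a collagen-binding glycoprotein that shapes cell-matrix contact. SPARC stood at 15.00 and 14.94 in treated and at 14.93 and 15.04 in untreated cells. The 4 values overlapped and spanned about 0.1 log2 units. The log2 difference was -0.014 with an interval from -0.45 to 0.42, or 0.733- to 1.34-fold, so a 2-fold difference in either direction lay outside the interval of SPARC.

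POSTN encodes periostin, a matricellular protein of fibroblasts and periosteum. POSTN was at 3.65 and 4.08 on the treated arrays, and at 3.85 and 3.52 on the untreated arrays. All 4 values were more than 3 log2 units below the limit of their array, so no fold is given. TNC encodes tenascin-C, a large matrix glycoprotein of embryonic and injured tissue. TNC was at 6.45 and 6.46 in treated and at 6.65 and 5.67 in untreated cells. TNC was not above the limit on any array either, but its mean of 6.31 exceeded the 90th percentile of the negative controls, 6.24.

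LGALS1 encodes galectin-1, a lectin of the cytosol and the cell surface that can bind beta-galactosides. LGALS1 stood at 15.58 and 15.92 on the treated arrays, and at 15.76 and 15.88 on the untreated arrays. Both untreated values lay between the treated ones. The log2 difference of LGALS1 was -0.07, with an interval from -0.55 to 0.42.

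S100A6 encodes calcyclin, a small calcium-binding protein of the EF-hand type. S100A6 stood at 11.40 and 11.67 in treated cells, against 11.53 and 11.46 in untreated cells. Again both untreated values lay between the treated ones. The log2 difference of S100A6 was 0.036, with an interval from -0.43 to 0.50, or 0.745- to 1.41-fold.

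**Figure D2:**
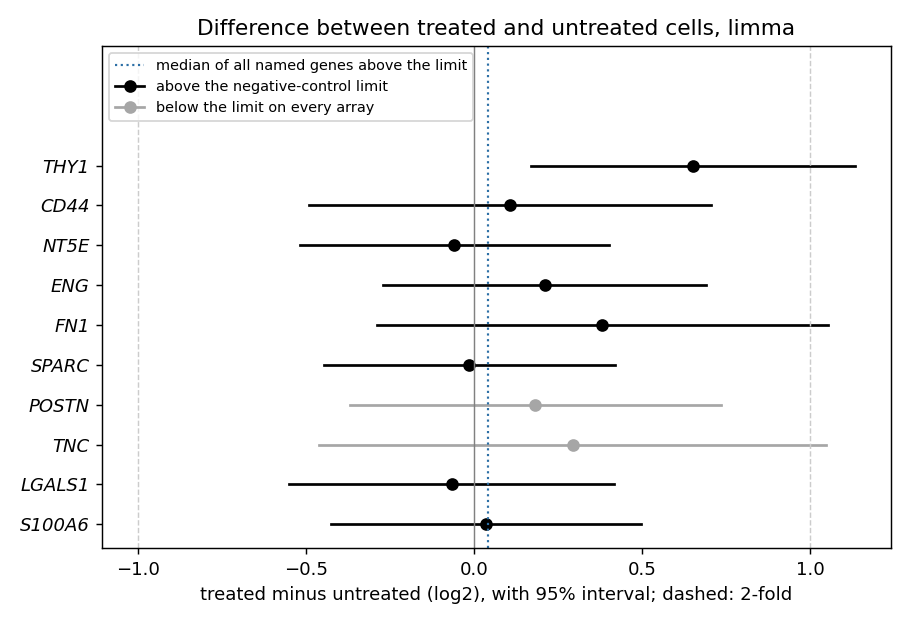
Treated minus untreated log2 difference (x axis) of each gene with its 95% interval from limma, with 2-fold bounds dashed and the median of all named genes above the limit in the deposited scaling, 0.040, dotted. The interval of THY1 lies above 0 and those of the other 9 genes include 0, with POSTN and TNC, below the limit on every array, in grey.

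As a group, 7 of the 10 genes had a positive difference, with a median of 0.14 on the log2 scale. Among the 8 genes above the limit, 5 were positive with a median of 0.072. Over the other scalings and with an array left out, 4 to 6 of the 8 were positive and the median ran from 0.024, without untreated replicate 2, to 0.14, without treated replicate 2. Over all named genes 49.8% were positive with a median of -0.00068, and over the 8722 named genes above the limit 58.8% were positive with a median of 0.040. That share was 50.4% with a median of 0.0014 after quantile normalization, and 50.7% with a median of 0.0036 after cyclic loess. The interval lay within 2-fold in both directions for 6 of the 8 genes above the limit, all but THY1 and FN1, and for 95.7% of the named genes above the limit.

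The spread between arrays of 1 group was larger than the difference between groups for most of these genes. In 9 of the 10, all but THY1, the wider of the 2 gaps between arrays of a group exceeded the difference of the group means, as it did in 78.8% of all named genes. The gap between arrays was wider in the treated than in the untreated group for 7 of the 10 genes, and for 44.0% of all named genes. Its median over the 10 genes was 0.31 in the treated and 0.11 in the untreated group, whereas over all named genes it was 0.19 in the treated and 0.24 in the untreated group. The members did not move one way between the treated arrays. CD44, NT5E, ENG and SPARC were lower on treated replicate 2 than on treated replicate 1, and THY1, FN1, POSTN, TNC, LGALS1 and S100A6 were higher.

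**Figure D3:**
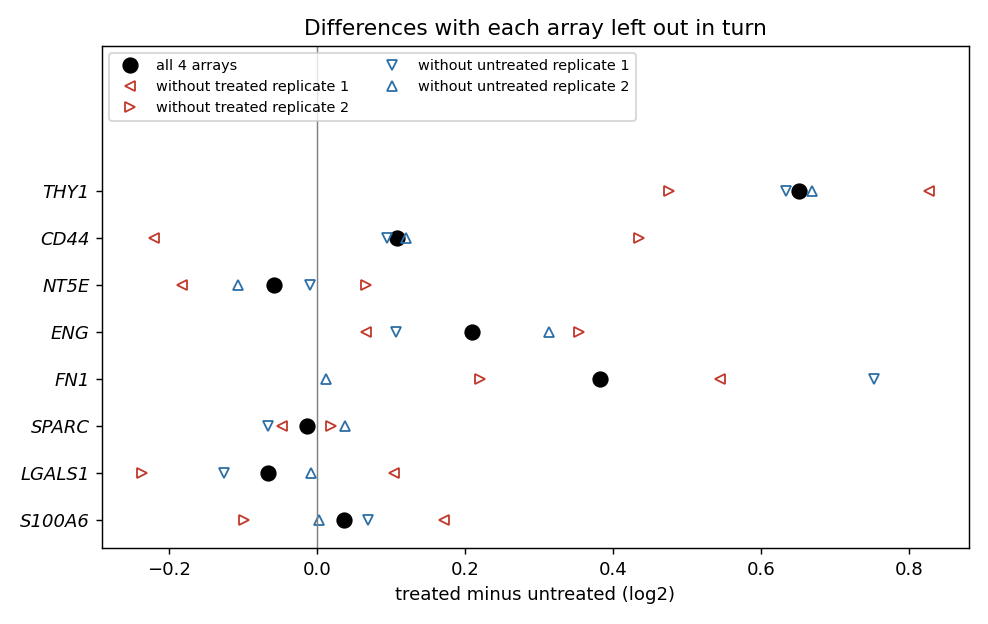
Treated minus untreated log2 difference (x axis) of the 8 genes above the limit with all 4 arrays (black) and with each array left out in turn (open triangles, red for a treated and blue for an untreated array). THY1, ENG and FN1 stay above 0 in every case, with FN1 at 0.011 without untreated replicate 2, whereas the other 5 have values on both sides of 0.

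The labelled cell type was set against marker lists. Of 10 measured adrenergic neuroblastoma markers 8 were above the limit, among them the transcription factor genes HAND2, GATA3 and ISL1 and the granule protein genes CHGA and CHGB. The other 2, DBH and TH, which encode enzymes of catecholamine synthesis, were below the limit on every array, DBH at 5.48 and 5.42 in treated and 5.52 and 5.30 in untreated cells, and TH at 5.35 and 5.32 in treated and 5.41 and 5.61 in untreated cells. Of 11 hematopoietic and endothelial markers 1 was above it, PTPRC, which encodes the leukocyte phosphatase CD45. PTPRC stood at 12.71 and 12.57 on the treated arrays, and at 12.75 and 12.80 on the untreated arrays, whereas CD34, CD14, CD3E, ITGAM and HLA-DRA were below the limit on every array. What the PTPRC probe set measures could not be checked without its probe sequences, so its signal is not read as expression of CD45. Of 6 epithelial markers 3 were above the limit, the keratin genes KRT8 and KRT18 and the claudin gene CLDN4, while EPCAM and CDH1 were below it, and 0 of 3 Schwann cell markers were above it. KRT18 stood at 8.84 and 8.73 in treated and at 8.45 and 7.79 in untreated cells, a log2 difference of 0.66 with an interval from 0.06 to 1.27 that did not pass. Without untreated replicate 2 the difference of KRT18 was 0.33, and without untreated replicate 1 it was 0.99. KRT8 had a log2 difference of 0.18, CLDN4 0.10 and PTPRC -0.14, none of which passed, and CLDN4 took both signs with an array left out (-0.09 to 0.29).

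Related genes and the cell type markers were read from the same fit in 12 lists, and limma called 0 of their 147 measured genes in either direction at an adjusted p under 0.05. At an unadjusted p under 0.05 there were 7 (4.76%), against 5.08% of all probe sets. Among other mesenchymal and stromal surface genes 11 of 15 measured were above the limit. Of the 11, 3 were positive, with a median log2 difference of -0.09, against 58.8% and 0.040 over all named genes above the limit. The list counts use the mean of the 4 arrays, and AXL, counted among the 11, was above the limit of only 2 single arrays. The median of that list was negative under each of the 3 other scalings and with each array left out (-0.13 to -0.05). These settings reuse the same 4 arrays, and the list was not tested as a set. CD248, which encodes the stromal glycoprotein endosialin, had the largest absolute difference of the 11, at 9.343 and 9.680 on the treated arrays, against 9.001 and 8.949 on the untreated arrays. CD248 had a log2 difference of 0.54 (interval 0.06 to 1.01) that did not pass. It was higher on both treated arrays than on both untreated arrays, as were 16.4% of all probe sets. Of the 15 measured genes of the list 2 were higher in this way and 5 were lower, against 16.8% of all probe sets lower. FAP, a stromal surface protease, had a log2 difference of -0.23 and EGFR, the epidermal growth factor receptor, -0.21.

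Among other matrix glycoprotein and matricellular genes, 17 of 32 were above the limit, and 11 of the 17 were positive with a median of 0.12. FBN1, counted among the 17, was above the limit of only 1 single array. The median ranged from 0.021 to 0.18 over the other scalings and with an array left out. EFEMP1, a fibulin, had a log2 difference of 0.48 with an interval from -0.13 to 1.08, TGFBI, a TGF-beta-induced adhesion protein, 0.35, and THBS3, a thrombospondin, 0.27. EFEMP1 and TGFBI were below the limit on untreated replicate 2, and without that array their differences were 0.14 and 0.11.

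Among receptors for fibronectin, periostin and tenascin-C, 10 of 14 genes were above the limit. Of the 10, 8 were positive, against 58.8% of all named genes above the limit. The median of the 10 was 0.18 (0.13 to 0.26 over the other scalings and with an array left out). The syndecan gene SDC1 had a log2 difference of 0.38, and the integrin subunit genes ITGA5 and ITGA3 had 0.31 and 0.30. The intervals of all 3 included 0, and SDC1 had 0.22 without untreated replicate 2. The lowest difference of the 10 was -0.28, for the integrin subunit gene ITGAV, with an interval from -0.71 to 0.15. ITGB3, the gene of the β3 subunit, was below the limit on every array.

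CD44 partners gave values on both sides. HAS2, a hyaluronan synthase, had a log2 difference of -0.21, EZR, the membrane-cytoskeleton linker ezrin, 0.12 and MSN, moesin, 0.10, and 5 of 10 measured genes of the list were above the limit. In the adenosine list around NT5E, 5 of 11 were above the limit. ADORA1, an adenosine receptor, stood at 8.82 and 9.07 in treated and at 8.58 and 8.46 in untreated cells, a log2 difference of 0.43 with an interval from -0.03 to 0.89. ADA, adenosine deaminase, had 0.28 and was above the limit on 1 array, and ADK, adenosine kinase, had 0.16. In the endoglin complex list 5 of 10 were above the limit, with the ligand gene TGFB1 at 0.43 (interval -0.18 to 1.03), the receptor gene TGFBR2 at 0.14 and the receptor gene ACVR1 at -0.12. Without untreated replicate 2 the difference of TGFB1 was 0.12. EZR, ADA, TGFBR2 and ACVR1 took both signs when single arrays were left out. The medians of the CD44 partners, the adenosine list and the endoglin list each took both signs when an array was left out or the arrays were rescaled.

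Other members of the LGALS1 and S100A6 families were also read. The galectin list held 10 other genes, among them LGALS3BP, which encodes a galectin-binding protein and not a galectin. Of the 10 genes 3 were above the limit, with log2 differences of 0.28 for LGALS8, 0.26 for LGALS3 and 0.09 for LGALS3BP. LGALS8 stood at 9.01 and 8.92 in treated and at 9.10 and 8.27 in untreated cells, and without untreated replicate 2 its difference was -0.14. Of the 3 galectin-list genes 2 to 3 were positive, with a median of 0.15 to 0.28, over the other scalings and with an array left out. Of 17 other S100 genes 5 were above the limit, with differences from 0.042 to 0.13, of which S100A16 had 0.13, S100A10 0.08 and S100A3 0.06. All 5 were positive with all arrays, and 2 to 5 of them, S100A16 and S100A10 among those that turned, were positive over the other scalings and with an array left out. The adrenergic markers above the limit had a median of 0.050 (-0.16 to 0.21), with log2 differences of 0.58 for PHOX2A, 0.16 for GATA3 and -0.18 for the neuronal gene STMN2.

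**Figure D4:**
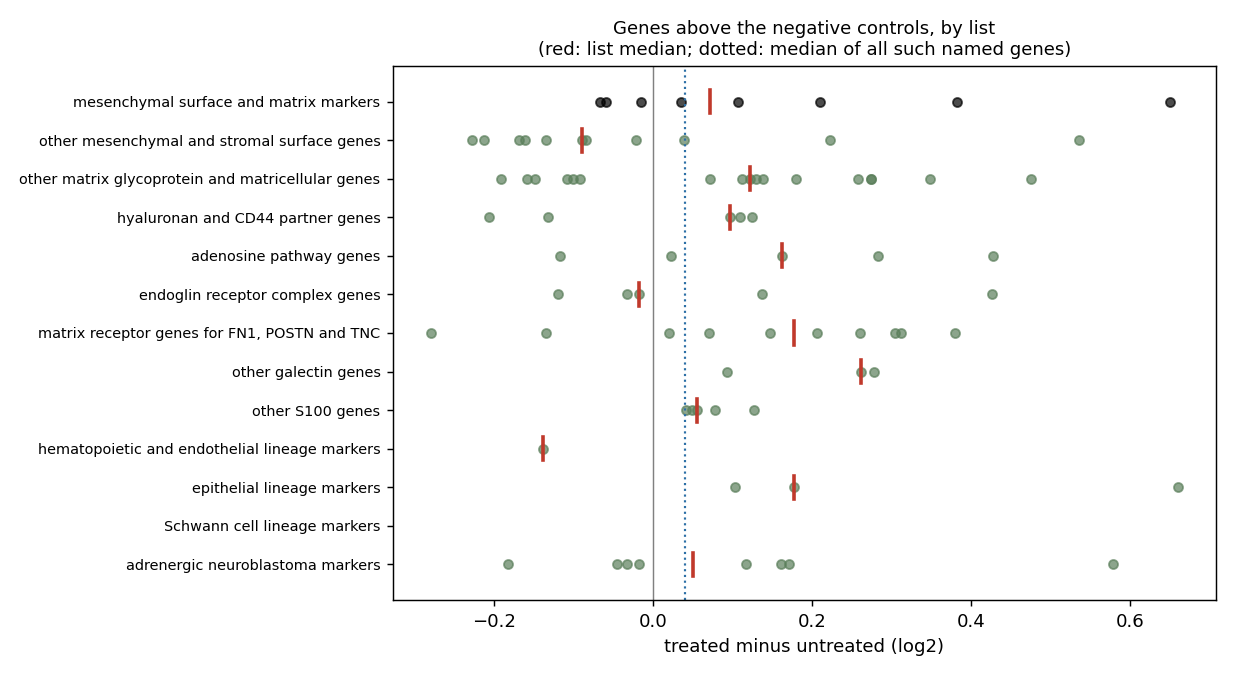
Treated minus untreated log2 difference (x axis) of each gene above the negative controls, by list (rows), with the list median in red and the median of all 8722 such named genes in the deposited scaling, 0.040, dotted. The 8 mesenchymal surface and matrix markers run from -0.07 for LGALS1 to 0.65 for THY1, and no Schwann cell marker is above the controls.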

How the data were processed

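Gene expression was measured in 4 arrays of SK-N-AS cells, 2 treated and 2 untreated, grouped by their titles. The deposited values are log2 expression per probe set. Per the submitters' processing notes the authors used Transcriptome Analysis Console 4.0.1.36 and RMA. RMA corrects background, gives the arrays 1 distribution of probe signals and then summarises probes, so that a shift common to nearly all genes is lost. The summarised values need not share 1 distribution, and the limits of single arrays ran from 7.19 to 7.64. The log2 scale was read from the values, and the probe sets' genome build is not stated in the labels. Of 24351 probe sets, 2903 controls, 612 of them negative, were left out and 21448 tested with no filter on dim signal. In the platform annotation 17709 had 1 symbol, 0 several and 3739 are unnamed here, and the brightest set stood for each of 20 genes with several.

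Treated and untreated arrays were compared by group in limma 3.58.1 (lmFit, eBayes) under R 4.3.3, two-sided and Benjamini-Hochberg adjusted over all probe sets at 0.05. Intervals are 95% and SDs are over 2 arrays. The labels do not say how the cultures within a group were kept apart, and p-values cover the spread between these arrays alone. An exact permutation test of 2 against 2 arrays cannot go below p = 0.333. The fit was also run on data simulated from its own variance model, which checks the code and not the fit to these arrays. Precision is limited by the number of arrays.

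The members, the 12 related lists and the limit were chosen with earlier results of these data known. All 10 members are named, and from each list the 3 genes above the limit with the smallest p, plus every hematopoietic, endothelial, epithelial or Schwann marker above it. CD34, CD14, CD3E, ITGAM, HLA-DRA, EPCAM, CDH1, HAND2, ISL1, CHGA, CHGB, DBH and TH are named beside them for the check of cell type, after their values were seen. AXL, FBN1, ITGAV and ITGB3 are named to qualify what is said of their lists, also after their values were seen. ITGB1 stands in 2 lists, as does S100B. Promoter sequences are from RefSeq, GRCh38.p14.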

Additional observations from a re-analysis of the deposited data

How the results depend on the processing

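Alternatives were quantile normalization, median centring, cyclic loess, a filter on dim probe sets, a floor at each array's own limit, a trended or robust variance prior, a replicate block, leaving out each array, keeping the controls, and averaging a gene's probe sets. Averaging gave the same differences, since each member has 1 probe set, and was not tested. None of the others called any of the 10 genes, and the smallest of their 128 adjusted p-values was 0.167, for THY1 with the floor. The unadjusted threshold gave 1089 probe sets and 1 member. Over all probe sets limma called 0 at the adjusted threshold in each of these tested alternatives except the floor, which called 10. With the floor, every probe set below the limit on all arrays takes the arrays' limits as its values. Such probe sets share a single difference and variance, so p-values with the floor rest on another variance prior than the rest. The median difference of the 10 genes, 0.14, was 0.12 after cyclic loess and 0.011 with the floor, and 0.012 to 0.14 with an array left out. The 0.011 includes POSTN and TNC, which sit at the floor on every array. The filter on dim probe sets drops POSTN and TNC, and its 0.072 is the median of the other 8.

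The rescalings, the floor and the left-out arrays are the 8 settings that can move a single difference, and of their 80 values 69 kept their sign and 11 did not. S100A6 was -0.0023 after cyclic loess. With the floor POSTN and TNC both read -0.26, which is the difference between the arrays' limits, since both genes sit at the floor on all 4 arrays. With an array left out, CD44 ran from -0.22 to 0.43, NT5E from -0.18 to 0.066, SPARC from -0.066 to 0.037, LGALS1 from -0.24 to 0.10 and S100A6 from -0.10 to 0.17. POSTN ran from -0.037 to 0.40, and TNC from -0.19 without untreated replicate 2 to 0.78 without untreated replicate 1. These are differences of values below the limit, not read as changes. The cause of these turns was not tested. The replicate block called 0 members, and it cannot move a difference because each group holds 1 array of each number. The deviations of same-numbered arrays correlated at -0.00085, so the numbers gave no sign of pairing.

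The count above the limit was 9 at the 90th percentile, with TNC added, and 7 at the 99th, with FN1 lost, and 8 in all other settings run.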
